A study of Mus musculus with 2 samples.

Results

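Cd209a or Flt3 conventional dendritic cells were 192 of the 15156 cells kept from mouse ovarian tumours: control IgG gave 108 among 8770 cells, and the Activin A antibody 84 among 6386. The members were chosen by their own UMIs (unique molecular identifiers, 1 for each captured transcript). A member held at least 2 UMIs of Cd209a, Flt3 and Zbtb46 together and at least 5 of H2-Ab1. It had at most 4 of C1qa, C1qb and C1qc, at most 2 of Ccr7 and Fscn1, and none of Cd3d, Cd3e, Cd3g, Cd79a, Xcr1, Clec9a or Siglech. A cell was kept with between 1000 and 8500 genes, between 1000 and 100000 UMIs and a mitochondrial share of no more than 10%. Levels of those rule genes chose the cells and are given below as a description.

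The tumours came from female C57BL/6 mice aged 6 to 8 weeks. All carried an abraded peritoneal wall and had received syngeneic ovarian cancer cells (p53-/-, with myc and Hras) by intraperitoneal injection, and no untumoured or unabraded tissue was analysed here. Daily intraperitoneal injections of control IgG (7 mice by the labels) or of an antibody that neutralizes Activin A (8 mice) lasted 10 days, and the tissue of each group was made into 1 single-cell library. The pooled libraries have no mouse-level replicates, so the antibody and the library cannot be told apart, no test between groups was possible, and every 95% interval below covers counting error only. PCR copies had been collapsed by UMI. Total depth was 98174850 UMIs for control IgG against 74117462 for the antibody, and kept cells had a median of 5719 and 4660 UMIs.

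Conventional dendritic cells take up antigen in tissue, load peptides onto MHC class II molecules and carry them to T cells. They depend on the receptor tyrosine kinase Flt3 and express the transcription factor Zbtb46. The type 2 branch displays antigen mainly to CD4+ T cells and carries C-type lectins such as Cd209a, Mgl2 and Clec10a, while the type 1 branch (Xcr1, Clec9a) cross-presents to CD8+ T cells. Once activated, both branches turn on the chemokine receptor Ccr7 and leave for lymph nodes. Activin A, a homodimer of the Inhba product, belongs to the TGF beta family and acts on several myeloid cells.

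Cd209a, a lectin that binds mannose-rich glycans, was seen in 79 of the 108 control IgG members and in 63 of the 84 antibody members. Flt3 was seen in 60 and 50 members, and Zbtb46 in 50 and 43. Cd209a and Flt3 were found together in 40 and 36 cells. Cells at the edge of the rule were common. The summed UMIs of the 3 genes were exactly 2 in 23 and 22 members, and another 50 and 31 cells met every other condition with a sum of 1. H2-Ab1 placed few cells at its edge, with 3 and 3 members at 5 or 6 UMIs and 4 and 2 cells outside at 3 or 4. A single UMI of Xcr1, Clec9a or Siglech kept out 13 and 10 cells, and a T- or B-cell transcript alone kept out 44 and 27.

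A few members carried genes of other cells. In 10 of the 108 control IgG members and 3 of the 84 antibody members, fibroblast and cancer-like marker genes together (Col1a1, Col3a1, Dcn, Dlk1, Krt18 and others) reached 10 UMIs or more. These cells were large, with median UMI counts of 27681 and 32392 against 7876.5 and 7985 in the remaining members, and they held 28.4% and 12.2% of all member UMIs. A gap separated them from the rest, since only 1 control IgG member and no antibody member had 5 to 9 such UMIs and none had 10 to 19. Of the members that Zbtb46 alone had admitted, they made up 8 of 9 in the control IgG library and 3 of 7 in the other. Whether they were doublets was not tested. The values that follow are for the remaining 98 and 81 cells (824730 and 676145 UMIs) unless all members are named; leaving the others out was a choice made after seeing the data. Levels are in CPM, the UMIs of a gene scaled to 1000000 summed UMIs of the same cells, and 3 UMIs correspond to 3.64 CPM with control IgG and 4.44 CPM with the antibody.

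With those cells left out, the 9 fibroblast markers summed to 40.0 and 23.7 CPM, from 2654 and 1565 CPM in all members, where Col3a1 led with control IgG and Dcn with the antibody. The 7 cancer-like markers summed to 38.8 and 35.5 CPM, from 1185 and 175 CPM in all members, where Lgals7 was the most abundant. Over all members, 6 of the 10 neutrophil markers were at 0 with control IgG and 7 with the antibody, and in the remaining cells they summed to 3.64 and 14.8 CPM. The 12 T and NK cell markers came over all members to 54.7 and 28.6 CPM, led by Il7r, with 5 and 7 of them at 0. In the remaining cells they summed to 70.3 and 31.1 CPM, and Il7r, the only 1 tested, was past 2-fold lower (-1.07). The 8 B cell markers summed to 74.0 and 39.9 CPM in the remaining cells, led in all members by Ighm. The part of these other markers in the comparisons below was not tested. The 19 macrophage markers summed to 890 and 676 CPM in the remaining cells, led in all members by Apoe, and the 15 monocyte markers to 2792 and 2922 CPM, led by Plac8.

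Some markers of the type 2 branch outside the rule were common in the members. Of 18 type 2 markers, 14 had at least 50 UMIs. Irf4, on both the type 2 and the conventional list, had few. Cells with at least 2 Cd209a UMIs held 15 and 5 UMIs of it, and cells with none held 9 and 4. The 16 conventional dendritic cell markers, rule genes included, summed to 2112 and 2156 CPM, less than the 15 monocyte markers (2792 and 2922 CPM). At least 1 UMI of Mgl2, Clec10a or Htr7 was present in 91 of the 98 control IgG cells and 80 of the 81 antibody cells. Clec10a, a galactose-binding lectin, stood at 564 and 558 CPM in the dendritic cells, 12.9 and 9.02 CPM in all other kept cells, and 4.32 and 4.13 CPM in T cells. Mgl2, its close relative on chromosome 11, whose reads may be split with it, stood at 502 and 569 CPM against 16.9 and 11.3 CPM in all other cells. Levels given for other dendritic and myeloid classes leave out cells with 10 or more fibroblast or cancer-like UMIs in the same way, and log2 ratios given for those classes cover all of their cells. Kmo, an enzyme of tryptophan breakdown, reached 218 and 240 CPM against 6.88 and 6.60 CPM, with 186 and 154 CPM in type 1 and plasmacytoid dendritic cells. Csf1r, the receptor that macrophages depend on, was at 74.0 and 75.4 CPM, when C1q macrophages held 478 and 437 CPM of it. Of the 10 markers named for the T-bet subset of type 2 cells, 3 had enough UMIs to be compared between the libraries (Jaml, Dusp2 and Nr4a3), and none of these passed 2-fold (median log2 ratio 0.30). The 10 summed to 409 and 448 CPM, against 884 and 1098 CPM in T cells. Tbx21, which encodes T-bet itself, had 22 and 24 UMIs, Esam 2 and 0, and Dtx1 none in either library.

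The 20 genes with the highest level over all other cells, rule genes aside, were led by Clec10a, Mgl2, Kmo, Ctnnd2, Napsa, Zfp366, Cbfa2t3, Pkib, Olfm1 and Ciita. Among the other 10 were Htr7, Cd209d, Bcl11a, H2-Eb1, H2-DMb2, H2-Oa and Ifitm1. Taking the lower of both libraries and adding 10 CPM to each level, the ratio over other cells ran from 25.1 for Clec10a to 7.01 for Bcl11a. Zfp366, a transcription factor also called DC-SCRIPT, was at 149 and 231 CPM, against 6.01 and 6.78 CPM in all other kept cells, mostly T cells. Levels of Zfp366 and Napsa in the other dendritic classes are not given here, so neither is shown to be particular to the members. Napsa, an aspartic protease, was detected in 96.9% and 95.1% of the dendritic cells.

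**Figure D1:**
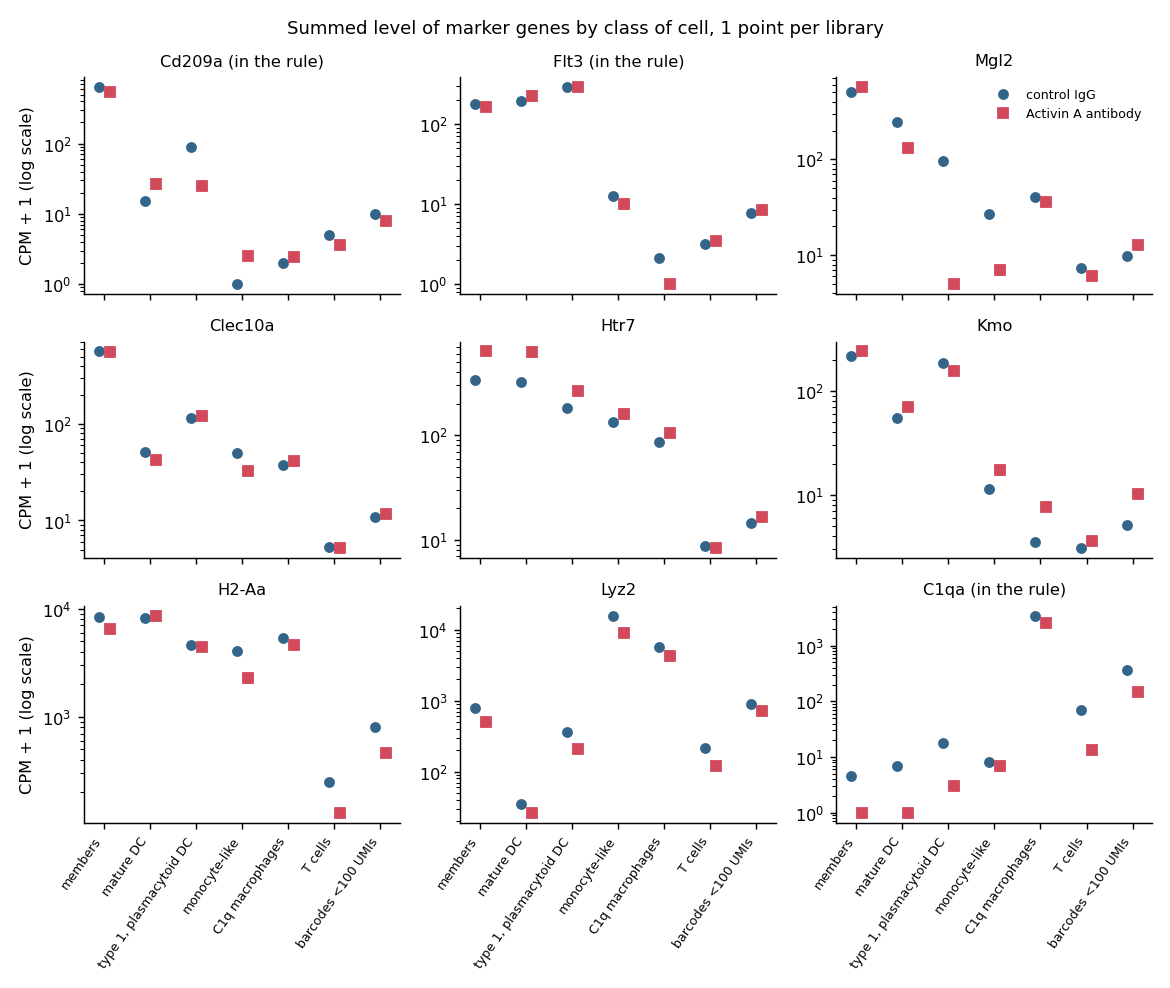
Level of 9 marker genes (CPM + 1, logarithmic axes) in 7 classes of cells or barcodes, 1 point for each library, with cells holding 10 or more fibroblast or cancer-like UMIs left out of the 5 myeloid and dendritic classes. Clec10a is highest in the members at 564 and 558 CPM, Htr7 is higher with the antibody in members and mature dendritic cells alike, and Lyz2 and C1qa mark monocyte-like cells and macrophages.

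The closest classes shared part of this pattern. Mature dendritic cells (at least 3 UMIs of Ccr7 and Fscn1) numbered 79 and 56, of which 50 and 38 had fewer than 10 fibroblast or cancer-like UMIs. These 50 and 38 cells kept Flt3 at 190 and 220 CPM and H2-Aa at 8285 and 8598 CPM, but Cd209a was at 14.0 and 25.2 CPM and Mgl2 at 242 and 129 CPM. Over all 79 and 56 cells Flt3 was at 62.1 and 72.7 CPM and H2-Aa at 2902 and 2974 CPM. Cells with fibroblast or cancer-like genes held most UMIs of this class. In the control IgG library the 50 cells had 499689 of its 1545185 UMIs. In the antibody library the 38 cells had 317534 of 962523. Log2 ratios given below for mature dendritic cells cover the whole class, so they are not over a set like the remaining members. Of these ratios only that of Ankrd37 is also given without such cells. Type 1 and plasmacytoid dendritic cells had Flt3 at 289 and 287 CPM, Irf8 at 1055 and 1501 CPM and Clec10a at 114 and 120 CPM. In the members Irf8, the transcription factor of the type 1 and plasmacytoid lines, was at 63.1 and 94.7 CPM. Monocyte-like cells (Ly6c2 with Csf1r) had Lyz2 at 15726 and 8992 CPM. The members had 789 and 504 CPM of Lyz2, while Ccr2, which brings monocytes and dendritic cell precursors into tissue, was at 273 and 303 CPM. Sirpa, an inhibitory receptor of type 2 cells and macrophages, stood at 259 and 231 CPM in the members and at 444 and 488 CPM in C1q macrophages. Flt3 and Cd209a belong to the rule, so these levels only describe the classes.

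The MHC class II genes H2-Aa, H2-Eb1 and Cd74 were detected in at least 98.8% of the cells of each library, and no tested gene of the pathway differed by 2-fold. Promoters of the class II chain genes, a part of this pathway, share a Y box, bound by the factor NF-Y. It lies next to the X box through which the coactivator Ciita acts. The letters CTGATTGG, searched on both strands in the 150 bases before the start site, were in 3.16% of 32851 RefSeq promoters of build GRCm38.p6 and in those of 4 of 11 pathway genes with an entry. Below are 3 of these: H2-Aa for its level in the cells, H2-Eb1 as a leading gene, and H2-Oa for its difference within the cells. The letters stand in capitals, beginning 51, 62 and 46 bases before the RefSeq start, and a match describes the sequence only. GENCODE M21 starts H2-Oa at 34092340, within the stretch printed for it.
H2-Aa promoter, chr17:34287824-34287973, strand -: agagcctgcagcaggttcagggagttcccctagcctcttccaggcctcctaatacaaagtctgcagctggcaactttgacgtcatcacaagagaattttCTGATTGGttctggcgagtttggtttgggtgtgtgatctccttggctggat
H2-Eb1 promoter, chr17:34305717-34305866, strand +: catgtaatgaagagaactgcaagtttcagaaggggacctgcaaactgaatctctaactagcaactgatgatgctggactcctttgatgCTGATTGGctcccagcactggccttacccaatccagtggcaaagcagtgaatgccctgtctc
H2-Oa promoter, chr17:34092229-34092378, strand +: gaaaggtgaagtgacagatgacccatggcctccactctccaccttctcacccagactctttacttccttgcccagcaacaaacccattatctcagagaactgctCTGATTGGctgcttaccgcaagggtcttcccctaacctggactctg

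H2-Aa and H2-Eb1 encode chains of the peptide-binding molecules. H2-Aa was at 8341 CPM with control IgG and 6513 CPM with the antibody, a log2 ratio of -0.36 (-0.41 to -0.30). H2-Eb1 was at 8655 and 7524 CPM (-0.20, -0.25 to -0.15). Cd74, the invariant chain that guides class II molecules to the endosome, was at 24157 and 20820 CPM (-0.21, -0.25 to -0.18). Ciita was at 321 and 294 CPM, and H2-DMa, which helps load peptide, at 861 and 830 CPM. None of the 12 pathway genes with at least 50 UMIs passed 2-fold in either direction, and their median log2 ratio was -0.12, against 0.02 over all 4452 genes tested. In all members it was 0.12, against 0.01. In all other kept cells together the ratios were far lower, -1.28 for H2-Aa and -1.31 for Cd74. C1q macrophages were 9.70% and 3.19% of kept cells, and the part of this mix was not tested. Summed over 13 pathway genes, levels were 47942 and 41502 CPM in the remaining members and 36095 and 36969 CPM in all members. The sums for other classes keep cells with fibroblast or cancer-like genes in, so they are not over sets like the remaining members. Mature dendritic cells, where such cells held most UMIs, had 16052 and 15609 CPM. All type 1 and plasmacytoid dendritic cells had 25711 and 24795 CPM, all C1q macrophages 35334 and 28497 CPM, and all monocyte-like cells 25958 and 16372 CPM. The libraries also differed in free RNA of these genes, with H2-Aa at 799 and 460 CPM in barcodes under 100 UMIs, and its part in the small differences was not tested.

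The share of these dendritic cells was alike in both libraries. Members made up 1.23% of control IgG cells (exact binomial interval 1.01% to 1.48%) and 1.32% of antibody cells (1.05% to 1.63%), a log2 ratio of 0.10 (-0.33 to 0.52). Without the cells carrying fibroblast or cancer-like genes the shares were 1.12% and 1.27% (0.18, -0.26 to 0.62). Mature dendritic cells (0.901% and 0.877%) and type 1 and plasmacytoid dendritic cells (0.787% and 0.814%) were likewise near one another. C1q macrophages stood apart, at 9.70% and 3.19% of cells. Only 1 alternative moved the members' share: when every cell was thinned to 2000 UMIs before the rule was applied, 71 of 8550 (0.830%) and 36 of 6133 (0.587%) cells passed, a log2 ratio of -0.50 (-1.12 to 0.10). Cells marked by Mki67 and Top2a, genes of dividing cells, were 8 of the 108 and 5 of the 84 members. The libraries had 19 barcodes of kept cells in common, and none of these was a member.

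Of the 5 genes that mark the cells (Cd209a, Flt3, Mgl2, Clec10a and Htr7), Htr7 had the ratio farthest from 0. Htr7 (chromosome 19, 35958734 to 36057507, minus strand) encodes a serotonin receptor. It was at 337 CPM (278 UMIs) with control IgG and 634 CPM (429 UMIs) with the antibody, a log2 ratio of 0.91 (0.69 to 1.14), and at 1.20 in all members. The cells with a UMI were 66.3% and 85.2% of the dendritic cells, against 1.81% and 1.11% of T cells at median depths of 5099 and 4351.5 UMIs. After thinning to 2000 UMIs these were 39.8% (30.0% to 50.2%) and 52.5% (41.0% to 63.8%), so that the intervals overlapped, and 0 and 1 of the dendritic cells were too shallow to be thinned. Mature dendritic cells, a separate set of cells from the same libraries, had Htr7 at 326 and 633 CPM in the 50 and 38 cells with few fibroblast or cancer-like UMIs, and at 107 and 210 CPM over all 79 and 56. All cells outside the members together had a log2 ratio of -0.14.

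Clec10a had a log2 ratio of -0.02 (-0.22 to 0.18) and Mgl2 of 0.18 (-0.02 to 0.39). Cd209a, at 639 and 535 CPM, had -0.26 (-0.45 to -0.06), and Flt3, at 177 and 161 CPM, had -0.14 (-0.51 to 0.23). Cd209d, a lectin gene near Cd209a on chromosome 8, was at 99.4 and 161 CPM (0.70, 0.27 to 1.13), and Cd209e at 15.8 and 56.2 CPM (1.83, 0.89 to 2.87). These Cd209 genes are close relatives, and how reads shared between them were counted is uncertain. Klf4, a transcription factor needed by a part of the type 2 lineage, was at 101 and 176 CPM (0.81, 0.39 to 1.23), although it was also higher in C1q macrophages (1.00). Il1r2, the decoy receptor for interleukin 1, was at 189 and 282 CPM (0.58, 0.27 to 0.89).

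Over all genes with at least 50 UMIs, 56 of 4452 were at least 2-fold higher with the antibody (1.26%) and 57 at least 2-fold lower (1.28%). In all members the counts were 83 of 5463 (1.52%) and 200 (3.66%), and 41 and 30 genes were called in both sets. Of the 200 genes lower in all members, 30 were thus called without the few cells with stromal and cancer genes. Dlk1 had 225 and 5 UMIs in all members, 141 of them in 1 cell, and 7 and 4 UMIs once those cells were left out. Spp1 had 725 and 38 UMIs, 502 of them in 1 cell, and then 46 and 34. Single cells also weighed on the remaining lists, since 1 cell held at least 50% of the UMIs on the higher side for 7 of the 56 and 8 of the 57 genes.

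Of the 12 named genes higher with the antibody, Csrnp1 had the highest ratio. Csrnp1, a nuclear transcription factor, was at 32.7 CPM (27 UMIs, 21.4% of cells) with control IgG and 139 CPM (94 UMIs, 53.1% of cells) in the antibody library, for a log2 ratio of 2.09 (1.46 to 2.76). No cell held more than 7 of these UMIs. After thinning, 6 of 98 (2.28% to 12.9%) and 20 of 80 (16.0% to 35.9%) dendritic cells had a UMI, against 3.15% and 5.70% of T cells. Csrnp1 was also higher in T cells (0.91) and in free RNA (1.29), so that part of the direction was shared.

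Trib1, a pseudokinase that directs protein breakdown, was at 35.2 and 112 CPM (1.68, 1.04 to 2.35), with 0.36 in all other cells. Cyp7b1, an oxysterol hydroxylase, was at 167 and 549 CPM (1.71, 1.43 to 2.01) and was spread over 31.6% and 48.1% of cells, with at most 50 UMIs in 1 cell. Cyp7b1 was also higher over all mature dendritic cells, those with stromal genes included (1.20), with 0.35 in all other cells. It was lower in type 1 and plasmacytoid dendritic cells (-2.75) and in monocyte-like cells (-4.29). The limit of 50 UMIs was set on the members only, so these ratios can rest on very few UMIs and their size is uncertain. Ccdc162 was at 202 and 600 CPM (1.57, 1.30 to 1.84), with 0.62 in all other cells. Its ratio was larger over all mature dendritic cells, those with stromal genes included (2.23), in monocyte-like cells (2.33) and in C1q macrophages (1.94). Both were thus detected in a larger part of the antibody cells, but in no more than 50% of them. Gfra2, a receptor for neurturin, was at 21.8 and 79.9 CPM (1.87, 1.08 to 2.73), and was also higher in all other cells (0.92). Emp1, a membrane protein, was at 44.9 and 146 CPM (1.71), and in all members its ratio was 0.79. Ero1l, an oxidase of the endoplasmic reticulum that responds to hypoxia, was at 32.7 and 93.2 CPM (1.51), and Ankrd37, another hypoxia-responsive gene, at 24.3 and 68.0 CPM (1.49). Ankrd37 was also higher in mature dendritic cells (1.16, or 0.46 without cells with stromal genes), type 1 and plasmacytoid dendritic cells (1.83) and monocyte-like cells (31.2 and 67.1 CPM over all of them). In all other cells the ratios of Emp1, Ero1l and Ankrd37 were 0.25, 0.55 and 0.37. Prelid2 had a ratio of 1.41. Rgcc had a ratio of 1.46 from 23 and 52 UMIs, but 18 of the latter came from 1 cell, and it was found in 18.4% and 17.3% of cells. Rgcc had a ratio of 1.41 in monocyte-like cells. Hmox1, the enzyme that breaks down haem, had 15 and 45 UMIs, but 35 of the latter came from 1 cell. In all members Ffar2 (1.68), Treml2 (1.58) and Clu (1.63, with 118 of its 274 antibody UMIs in 1 cell) were among the named genes, and Emp1, Ero1l, Rgcc and Prelid2 were not.

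The 12 named genes on the lower side included the cytokine Tnf. Tnf (chromosome 17, 35199381 to 35202007, minus strand) was at 99.4 CPM (82 UMIs, 35.7% of cells) with control IgG and 28.1 CPM (19 UMIs, 19.8% of cells) in the antibody library, for a log2 ratio of -1.82 (-2.63 to -1.09). After thinning 14 of 98 (8.04% to 22.8%) and 4 of 80 (1.38% to 12.3%) cells had a UMI, with 8.53% and 8.34% of T cells, which also make Tnf. In all other cells Tnf had a ratio of -0.55. It was -0.45 over all mature dendritic cells, those with stromal genes included. The ratio of Tnf was -0.75 in type 1 and plasmacytoid dendritic cells, -0.72 in monocyte-like cells, 0.44 in C1q macrophages and 0.04 in T cells. Arhgap25, which restrains Rac signalling in phagocytes, was at 65.5 and 13.3 CPM (-2.30, -3.50 to -1.27) and was found in 37.8% and 9.88% of cells. Arhgef18 was at 82.5 and 19.2 CPM (-2.10), Glcci1 at 55.8 and 14.8 CPM (-1.92) and Inpp4b, a phosphoinositide phosphatase, at 77.6 and 23.7 CPM (-1.71). In all other cells, mostly T cells, the ratios of these 4 genes lay between -0.35 and 0.01. In the related dendritic and myeloid classes their ratios ran from -1.32 (Arhgap25 in mature dendritic cells) to 0.78 (Inpp4b in C1q macrophages). Over all 79 and 56 mature dendritic cells Arhgap25 was at 5.18 and 2.08 CPM. With the antibody 3 UMIs correspond to 3.12 CPM in that class, so the ratio of -1.32 rests on very few UMIs. Gpr141, an orphan receptor, was at 290 and 102 CPM (-1.51, -1.91 to -1.11), but was lower in all other cells too (-0.98). Clec4b1, a lectin receptor, was at 94.6 and 34.0 CPM (-1.48). Ifit2, an interferon-induced gene, was at 72.8 and 10.4 CPM (-2.81), and 21 of its 60 control IgG UMIs lay in 1 cell. Mbp and Isyna1 had ratios of -1.65 and -1.56. The muscle genes Acta1 and Tnni2 were also on this side, yet 129 of 139 Acta1 UMIs and 39 of 57 Tnni2 UMIs came from single cells. In all members the named lower genes were Dlk1, Acta1, Spp1, Mtap, Chchd10, Bgn, Col18a1, Tpm2, Ifit2, Ctnnd1, Mid1 and Arhgap25, of which Dlk1, Spp1, Ctnnd1 and Mid1 were within 2-fold once the cells with stromal genes were left out.

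**Figure D2:**
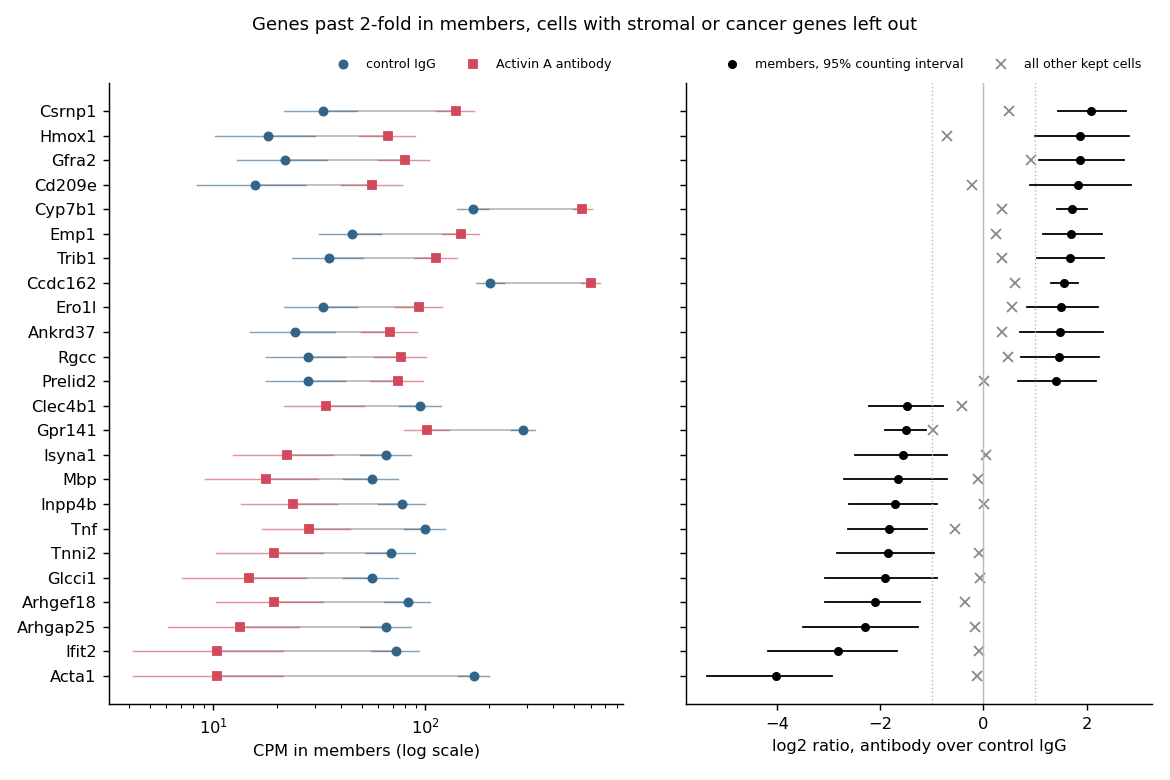
The 24 named genes in the 98 and 81 cells: left, CPM in each library on a logarithmic axis with 95% Poisson intervals; right, log2 ratio of antibody over control IgG with its 95% counting interval, and the same ratio in all other kept cells as crosses. Csrnp1 is highest on the upper side at 2.09, Acta1 is lowest at -4.03, and the crosses lie between -0.98 and 0.92.

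Il1b, the inflammatory interleukin, was at 597 CPM (492 UMIs) with control IgG and 1137 CPM (769 UMIs) with the antibody, a log2 ratio of 0.93 (0.77 to 1.1), or 1.22 in all members. It was found in 56.1% and 69.1% of cells, and in 3.52% and 2.20% of T cells. After thinning the shares were 34.7% and 48.8%, against 1.59% and 1.15% of T cells. One antibody cell held 120 of these UMIs, and C1q macrophages had a ratio of 0.70. Osm, a cytokine of the interleukin 6 family, was at 54.6 and 105 CPM (0.94, 0.39 to 1.52). Tgfb1 was at 148 and 148 CPM. Il12a, Il12b and Il23a, subunits of interleukins 12 and 23, had no UMI in any member, which allows up to 2.60 and 3.89 CPM. Of the 6 cytokine genes with at least 50 UMIs, 1 (Tnf) passed 2-fold and the median was 0.28.

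Of the 12 costimulation and checkpoint ligand genes tested none passed 2-fold, with a median of 0.12. Cd274, which encodes PD-L1, was at 213 and 331 CPM (0.63, 0.34 to 0.93) and Cd86, a ligand of CD28 and CTLA-4, at 353 and 472 CPM (0.42, 0.19 to 0.65). Cd40 was at 94.6 and 96.1 CPM and Cd80 at 55.8 and 60.6 CPM. The counting intervals of Cd274 and Cd86 thus lay above 0, and those of Cd40 (0.02, -0.47 to 0.52) and Cd80 (0.12, -0.52 to 0.76) included it. The share of cells with Cd86 did not follow its level: after thinning it was seen in 49 of 98 and 36 of 80 cells. In all members the list also had none past 2-fold, and its median was 0.39.

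Of the 10 chemokine ligand genes tested, 1 was higher by 2-fold, none lower, and the median was -0.32. Ccl24, an eotaxin, was at 17.0 and 120 CPM, but 65 of its 81 antibody UMIs were in 1 cell. Cxcl9, which draws CXCR3+ T cells, was at 230 and 177 CPM (-0.38, -0.72 to -0.04), Ccl6 at 198 and 127 CPM (-0.64) and Ccl4 at 400 and 322 CPM (-0.31). Ccl7 had 136 and 1 UMIs in all members and 2 and 0 in the remaining cells. Among chemokine and homing receptors, Ccr1 was at 83.7 and 149 CPM (0.84, 0.38 to 1.30). Itga4, an integrin of tissue entry, went the other way at 228 and 115 CPM (-0.98, -1.38 to -0.59).

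Genes of activin and TGF beta signalling were near 0. None of 12 genes tested passed 2-fold and the median log2 ratio was 0.07, or none of 16 and 0.04 in all members. Acvr2a, the type II activin receptor, was at 104 and 94.7 CPM (-0.14, -0.63 to 0.34). Smad2, which carries the signal, was at 64.3 and 71.0 CPM (0.14), and the inhibitors Smad7 and Skil were at 80.0 and 72.5 CPM (-0.14) and 119 and 112 CPM (-0.08). The type I receptors Acvr1b (12.1 and 22.2 CPM) and Tgfbr1 (19.4 and 32.5 CPM) had fewer than 50 UMIs and were not compared.

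Interferon-stimulated genes gave none higher and 1 lower (Ifit2) of 14, with a median of -0.04. Isg15 was at 192 and 269 CPM (0.49) and Irf1 at 361 and 291 CPM (-0.31). Immediate-early and heat shock genes, which respond to tissue handling as well as to stimuli, gave none higher and 1 lower of 16 (Egr1, 138 and 66.6 CPM, -1.05), with a median of 0.10. Fos was at 553 and 680 CPM (0.30). Among 17 glycolysis and hypoxia genes, 1 was higher (Ero1l), none lower and the median was 0.20. Hif1a was at 232 and 362 CPM (0.65, 0.37 to 0.93), the glucose transporter Slc2a1 at 82.5 and 127 CPM (0.63, 0.15 to 1.11) and Ldha at 622 and 688 CPM (0.14). Their median in all members was -0.22, so its sign depends on the few cells with stromal and cancer genes. The list of 11 phagosome, lysosome and lipid genes had 1 higher (Gpnmb, with all of its 36 antibody UMIs in 1 cell) and 1 lower (Apoe, 239 and 93.2 CPM, -1.36), and a median of -0.04. Apoe was lower in all other cells as well (-1.78). Among the 9 genes of type 2 immunity, Ccl24 alone passed 2-fold and the median was 0.18. Tgm2, a transglutaminase, was at 258 and 389 CPM (0.59) and Mrc1, the mannose receptor, at 195 and 194 CPM (-0.01). Of 6 cell division genes 1 passed 2-fold (Top2a, 27.9 and 56.2 CPM, 1.01), the median was 0.00, and Mki67 was at 38.8 and 35.5 CPM (-0.13). Top2a was found in 9.18% and 7.41% of cells, and after thinning in 4 of 98 and 2 of 80. Its higher level thus went with a smaller share of positive cells. Of 4 pattern recognition genes none passed.

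Both lists that name the cells hold genes that chose them (Cd209a in the type 2 list, Flt3 and Zbtb46 in the conventional list), so their values only describe the cells. Type 2 dendritic cell genes gave 2 higher (Ffar2 and Cd209e) and none lower of 14, with a median of 0.43, and in all members 3 higher with a median of 0.69. Conventional dendritic cell genes gave none of 15 and a median of 0.01. Dpp4 was at 204 and 126 CPM (-0.70, -1.09 to -0.31) and Bcl11a, a transcription factor of the lineage, at 120 and 209 CPM (0.80, 0.42 to 1.18). Bcl11a was found in 40.8% and 33.3% of cells, so that its higher level went with fewer positive cells.

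**Figure D3:**
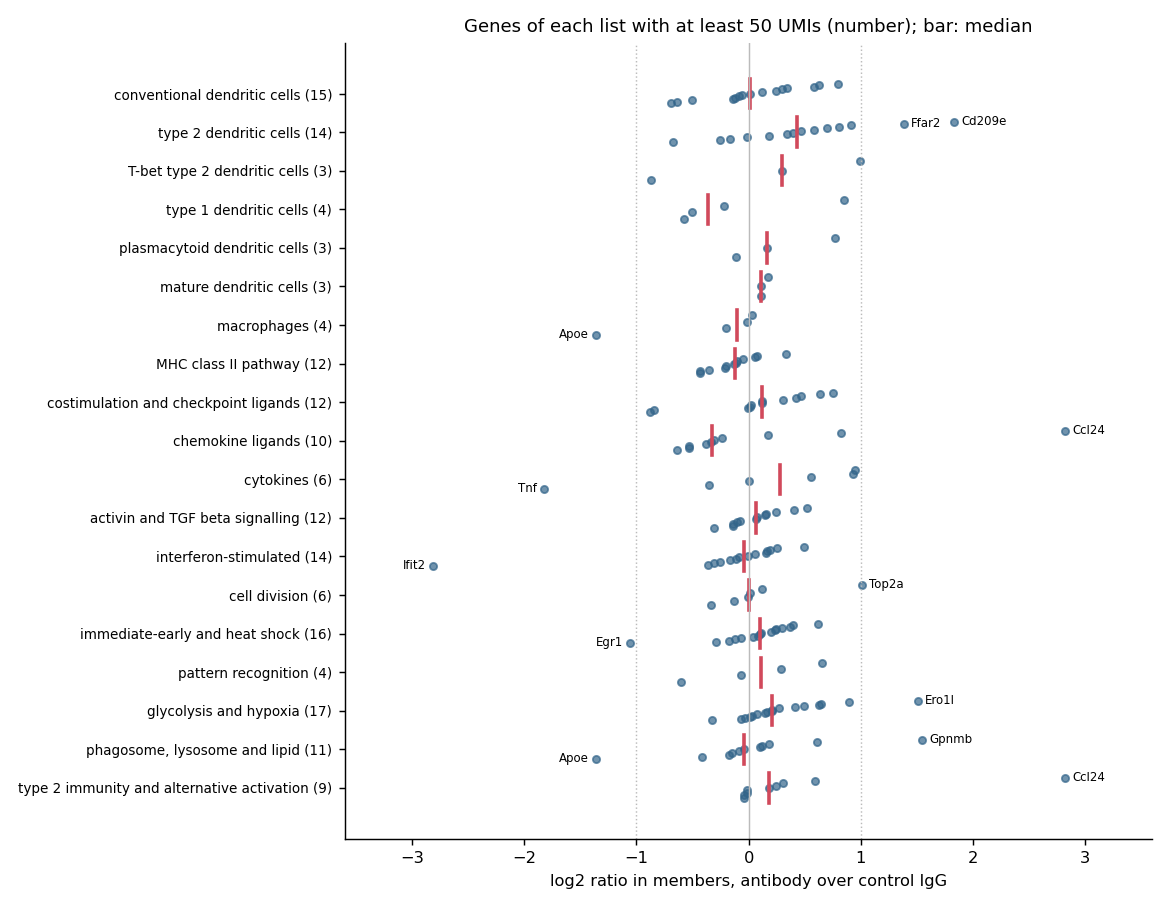
Log2 ratio of antibody over control IgG in the 98 and 81 cells for the genes with at least 50 UMIs (number in brackets) of 19 lists that have at least 3 of them, with the median of each list as a bar and dotted lines at 2-fold. Most points lie within the dotted lines; Ccl24 reaches 2.82 and Ifit2 -2.81, and each gene past 2-fold is named.

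Members with and without Cd209a were compared within each library. At least 2 Cd209a UMIs were held by 69 control IgG and 49 antibody cells and none by 21 and 18, and the median UMI counts were 7637 and 7056 against 10039 and 9353. The cells without Cd209a were let in by Flt3 and Zbtb46, so that these genes are tied to the split: Zbtb46 was at 48.4 and 60.3 CPM with Cd209a and 135 and 144 CPM without. Of 4082 genes with at least 50 UMIs, 51 were at least 2-fold higher with Cd209a in both libraries (1.25%) and 32 at least 2-fold lower (0.784%). Passing in both libraries was the rule for these calls, so that their shared direction is no finding, and other genes went opposite ways, such as Apoe (2.65 with control IgG and -2.88 with the antibody) and Iigp1 (2.27 and -2.13).

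Of the macrophage markers, 2 of 4 were higher with Cd209a in both libraries and none was lower. Receptors on the other side included Clec12a, an inhibitory lectin of myeloid cells, with log2 ratios of -1.60 with control IgG and -3.04 with the antibody. Mrc1, the mannose receptor, was at 262 and 283 CPM with Cd209a and 43.4 and 74.6 CPM without, log2 ratios of 2.59 (1.63 to 3.75) with control IgG and 1.92 (1.09 to 2.88) with the antibody. Fcgr3, an activating Fc receptor, was at 111 and 73.3 CPM against 24.1 and 23.0 CPM. Ccr2 was at 353 and 375 CPM against 91.6 and 161 CPM, and Csf1r at 91.4 and 107 CPM against 38.6 and 34.4 CPM. Lyz2, the monocyte lysozyme, was at 1084 and 668 CPM against 53.0 and 436 CPM, a log2 ratio of 4.35 with control IgG and 0.61 with the antibody. Mgl2 was also higher (611 and 663 against 227 and 304 CPM). Other named genes on this side were Rgl1, Pde7b, Fgfr1, Atg7, Itpr2, Bcl11a, Cd200r1, Fbxo34 and Lifr, and the interval of Itpr2 with the antibody and of Cd200r1 with control IgG included 0.

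Cells without Cd209a had more of H2-Oa, a chain of the DO molecule that tempers peptide loading. It was at 313 and 293 CPM without and 109 and 47.2 CPM with Cd209a, log2 ratios of -1.52 (-2.05 to -0.99) and -2.63 (-3.50 to -1.83). H2-DMb2, a chain of the loading factor DM, was also higher without Cd209a, at 381 and 298 CPM against 120 and 160 CPM (-1.67, -2.16 to -1.18, and -0.90, -1.46 to -0.34). H2-Aa was at 8683 and 7669 CPM without and 8031 and 5910 CPM with Cd209a (-0.11, -0.19 to -0.03, and -0.38, -0.47 to -0.28). H2-DMb1 went the other way, with log2 ratios of 0.63 and 0.52. Clec12a, an inhibitory lectin, was at 86.8 and 86.1 CPM without and 28.7 and 10.5 CPM with it. Ccnd1, a cyclin, was at 198 and 189 CPM without and 66.3 and 39.3 CPM with it. Spint2, H2-Q6, Il7r, Ddt, Hat1, Dnmt3a, Ptafr and Nr4a3 also lay on this side, Il7r with an interval that included 0 with the antibody. H2-Q6 has near-identical relatives, and its reads may be shared with them. Htr7 did not separate the 2 sets, at 342 and 610 CPM with Cd209a and 318 and 626 CPM without, so the higher Htr7 with the antibody was seen in both.

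**Figure D4:**
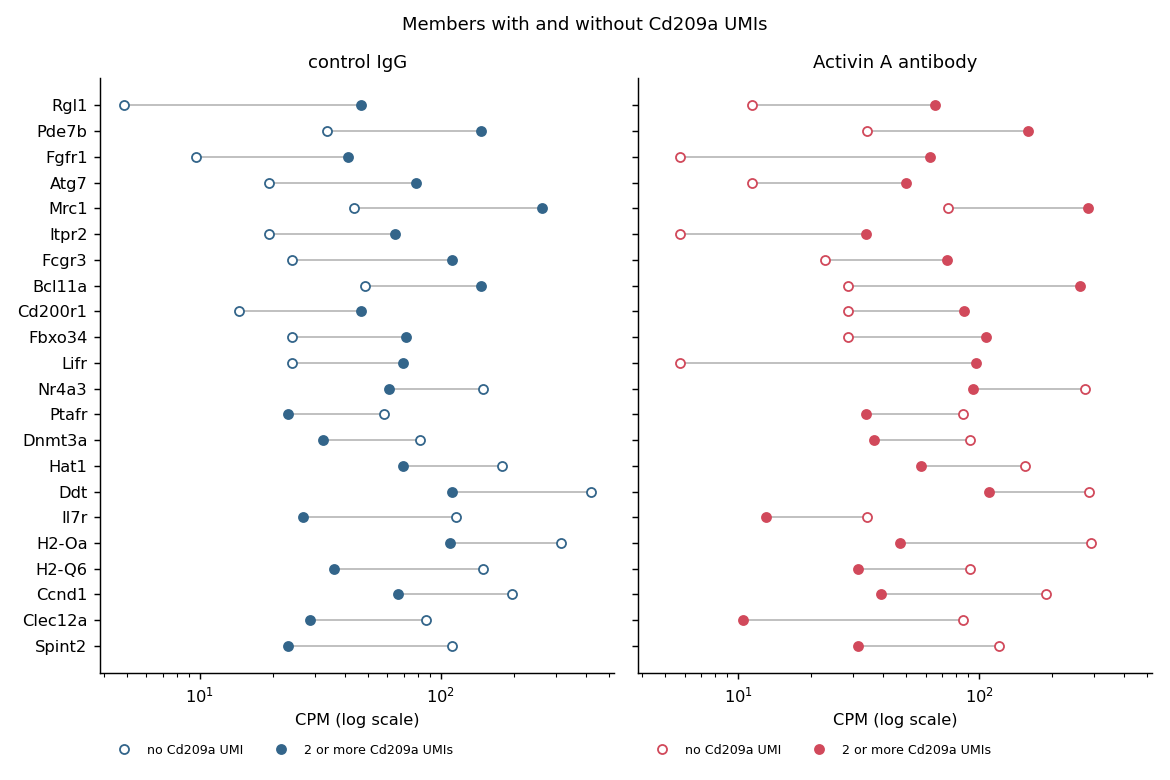
CPM (logarithmic axis) of 22 named genes in members with at least 2 Cd209a UMIs (filled) and with none (open), control IgG on the left and the antibody on the right. The upper 11 genes are higher and the lower 11 lower with Cd209a in each library.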

How the data were processed

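Per the labels, 1 single-cell library of 3' transcript ends was made from the pooled tumours of each group. The authors deposited unfiltered UMI counts per gene and droplet barcode from Cell Ranger (version 7.0.1 in the submitters' processing notes, version 4 in the file header) on build mm10; the annotation is not given in the sources used here. The study's stated filters on genes, UMIs and mitochondrial UMIs were applied. For each library and class of cells, counts were added up and divided by the total of that class. Genes with at least 50 UMIs over both libraries were compared, and those past 2-fold were counted. Intervals at 95% are exact Poisson (CPM), Clopper-Pearson (shares) and conditional binomial (log2 ratios). The members and lists were chosen with earlier results of these data known. Genes were named from 29 lists, as the 20 with the highest level over other cells, and as the 12 highest and 12 lowest log2 ratios past 2-fold among genes in at least 10% of the cells of 1 library. Mitochondrial, ribosomal, haemoglobin, Gm and Rik genes were left out of the last of these. Of 378 list genes 373 were matched by symbol; Cd301a, Mx1, Clec7a, Sting1 and Aldoa were not analysed here. Positions come from GENCODE M21, which held 99.8% of the gene identifiers. Some genes, and the counts of 2 lists that hold them, are not reported here. No doublet caller was run. Thinning drew 2000 UMIs from each cell once. The script was tested on simulated data. Python 3.11.15, numpy 2.4.6, scipy 1.17.1, pandas 2.3.3 and matplotlib 3.10.9 were used.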

Additional observations from a re-analysis of the deposited data

How the results depend on the processing

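Each group is 1 library, so no replicate could be left out. No paired analysis was possible because there is only 1 library in a group. The log2 ratio of the members' share (0.10) was -0.50 when cells were thinned to 2000 UMIs and between -0.00 and 0.19 under the other 16 alternatives. The 83 higher and 200 lower genes of all members became 214 and 658 with at least 20 UMIs, 16 and 31 with at least 200 UMIs, 869 and 1667 with no filter, 436 and 535 at 1.5-fold, and 22 and 14 after thinning. Without members above the 95th percentile of UMIs 132 were lower. Leaving out members with 10 or more fibroblast or cancer-like UMIs, an alternative chosen after seeing the data, gave 57 lower, and with the median also set to 0 it gave 50 higher and 63 lower. In all members Cd63 then turned from -1.47 to 0.064, or 0.041 with the median set to 0. Taken as a share of cells after thinning, the sign turned, among genes past 2-fold in all members, for Clu (-0.84), Acta1 (0.38), Bcl11a (-0.13), Apoe (0.21) and Mid1 (0.38, also 0.38 as a level), and among genes within 2-fold for Cd86 (-0.06) and others. Inhba, found in 2.78% and 2.38% of all members, turned to -0.85 with at least 3 UMIs in the rule. It was found in 0% and 1.23% of cells once those with 10 or more fibroblast or cancer-like UMIs were left out. All control IgG members with Inhba were thus among the cells left out. Its value and its turn thus rest on few cells. Causes were not tested. Over 75 named genes, 553 values moved by less than their counting interval, 164 moved by more, and 9 turned sign in genes past 2-fold. Depth limits genes under 50 UMIs, and mice cannot be told apart within a library.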
